A study of Mus musculus with 16 samples.

Results

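The genes examined were 37 symbols of the glutathione conjugation system of the mouse, taken from a list of gene names with no threshold on a measured value. Of these, 36 matched a gene among the 48709 identifiers of the count table, and Gsta13 is named only. The 36 genes held 25 transferases or transferase-like enzymes. These were 4 of the alpha class (Gsta1 to Gsta4), 7 of the mu class (Gstm1 to Gstm7), 3 of the pi class (Gstp1 to Gstp3) and 3 of the theta class (Gstt1 to Gstt3). The others were Gstk1 of the kappa class, Gsto1 and Gsto2 of the omega class, Gstz1 of the zeta class, Hpgds of the sigma class and the membrane enzymes Mgst1, Mgst2 and Mgst3. A further 4 were gamma-glutamyltransferases (Ggt1, Ggt5, Ggt6 and Ggt7), and 7 were Gstcd, Lancl1, the export pump Abcc1 and the enzymes Ephx1, Cbr1, Cbr3 and Aox1, which act on related substrates.

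Glutathione transferases join the thiol of glutathione to electrophiles such as epoxides, quinones and lipid aldehydes. The conjugates leave the cell through pumps of the Abcc family, and gamma-glutamyltransferases then begin their breakdown to mercapturates. Hepatocytes are known for large amounts of the alpha, mu and microsomal enzymes, and genes of the system are classical targets of the transcription factor NRF2, which binds the antioxidant response element.

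The libraries came from 8 female C57BL/6J mice aged 3 to 6 months, of which 4 were quadruple knockouts (QKO) of the methionine sulfoxide reductase genes Msra, Msrb1, Msrb2 and Msrb3 and 4 were wild type (WT). Liver and heart were taken from each animal, with no treatment, so the 16 libraries made 4 groups of 4: QKO liver, WT liver, QKO heart and WT heart. The labels used here do not describe the alleles. The question set by the design was how loss of these reductases, which repair oxidised methionine, changed RNA in each tissue.

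Total counts were 37.9 to 67.9 M per liver library and 42.1 to 72.6 M per heart library. Of the targeted genes, Msrb2 and Msrb3 fell in both tissues of QKO animals. Msrb2 had a log2 change of -7.04 in liver and -6.40 in heart, and Msrb3 of -1.99 and -2.62. The RNA of Msra fell in heart (-0.52, adjusted p = 0.0263, edgeR) but not past the threshold in liver (-0.72, adjusted p = 0.0867), and that of Msrb1 was higher in QKO heart (0.48, adjusted p = 0.0337). The 10 hepatocyte markers summed to 35600 to 49300 CPM (read counts relative to library size) in liver and 58.0 to 344 CPM in heart, and the 8 cardiomyocyte markers to 6.4 to 32.9 CPM in liver and 15100 to 18900 CPM in heart. WT livers 3 and 4 stood apart, with 514 and 151 CPM of pancreatic acinar transcripts against 3.14 to 6.19 CPM in the other livers, and WT liver 4 held 219 CPM of skeletal muscle transcripts. Loci of ribosomal RNA took 31.4% to 56.9% of the counts in 6 hearts, but 0.245% in QKO heart 4 and 7.37% in WT heart 4. In bulk tissue, fewer cells of a type and less RNA per cell cannot be told apart.

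Several of these genes are near copies, so part of their reads cannot be assigned to 1 gene. The first 75 coding bases of the pi class genes, from GENCODE release M21 transcripts, are shown because Gstp1 and Gstp2 share reads and Gstp3 does not, with capitals for bases that differ from Gstp1.
Gstp1: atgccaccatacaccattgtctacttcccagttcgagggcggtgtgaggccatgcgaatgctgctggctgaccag
Gstp2: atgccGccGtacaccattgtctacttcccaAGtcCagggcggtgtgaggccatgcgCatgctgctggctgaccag
Gstp3: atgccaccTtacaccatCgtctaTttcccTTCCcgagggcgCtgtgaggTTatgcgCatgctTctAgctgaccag
In this window Gstp2 differed from Gstp1 at 6 positions and Gstp3 at 13. Over the whole coding sequence Gstp1 and Gstp2 were 98.1% identical, against 72.2% for Gstp1 and Gstp3. All of them lie on chromosome 19 of GRCm38 (Gstp1 at 4035407 to 4037985, Gstp2 at 4040285 to 4046023 and Gstp3 at 4057477 to 4059569, minus strand). The same comparison is shown for a pair of the alpha class on chromosome 9, with capitals for bases that differ from Gsta1.
Gsta1: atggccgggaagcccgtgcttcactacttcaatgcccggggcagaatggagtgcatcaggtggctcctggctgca
Gsta2: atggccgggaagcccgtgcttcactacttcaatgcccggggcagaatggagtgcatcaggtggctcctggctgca
Gsta1 and Gsta2 had 0 differences in this stretch, which is as long as 1 read, and 97.5% identity over the coding sequence.

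The share of 75-base words of a gene's transcripts that also occurs in another gene measured this. It was 84.7% for Gsta1, 36.6% for Gsta2, 50.1% for Gstp2, 29.2% for Gstp1, 21.6% for Gstm3, 11.7% for Gstm1, 11.5% for Gstt3, 7.89% for Gstz1, 7.47% for Gstm5 and at most 3.89% for every other member. Values of Gsta1, Gsta2, Gstp1, Gstp2 and Gstm3 are therefore uncertain as values of single genes. The processed pseudogene Gstp-ps, which shares 60.9% of its words, was given 31.8 ± 4.00 CPM in QKO liver and 29.6 ± 4.14 CPM in WT liver (SD, n = 4 each), beside 76.0 ± 9.53 and 71.1 ± 11.5 CPM for Gstp1.

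Levels are CPM after TMM scaling of the libraries, and levels of different genes are compared as CPM per kb of exon. Microsomal Mgst1, an enzyme of the endoplasmic reticulum and mitochondrial membranes, had the highest level of these transcripts in liver. It had 600 ± 123 CPM per kb in QKO liver and 653 ± 177 CPM per kb in WT liver (SD, n = 4 each), and its WT range (541 to 917) did not overlap that of Gsta3, the next in order. Gsta3, an alpha class enzyme that conjugates aflatoxin epoxide in mouse liver, had 167 ± 31.9 CPM per kb in QKO liver and 161 ± 60.4 CPM per kb in WT liver. Gstm1, the main mu class enzyme, followed with 155 ± 33.8 CPM per kb in QKO liver and 137 ± 43.6 CPM per kb in WT liver. Gsta3 and Gstm1 overlapped in range in WT liver, so their order was not resolved. The next ranks in WT liver were Gstt1 (82.5 ± 13.6), the epoxide hydrolase Ephx1 (76.0 ± 16.8), Gstz1 (59.6 ± 7.39) and Gstp1 (46.0 ± 7.4 CPM per kb), each overlapping its neighbour.

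Heart had another leader. Mgst3, a membrane enzyme related to leukotriene C4 synthase, had 66.0 ± 8.81 CPM per kb in QKO heart and 62.7 ± 7.37 CPM per kb in WT heart, above all other members without overlap in either genotype. Gstm1 had 15.6 ± 0.918 CPM per kb in QKO heart, where it overlapped Gsto1 at 15.8 ± 1.48, and 16.8 ± 1.46 CPM per kb in WT heart, where it was second without overlap. Gsto1 (14.7 ± 0.0893), Gsta4 (14.6 ± 0.592), Gstm2 (11.4 ± 1.09) and Gstk1 (11.1 ± 0.561 CPM per kb) filled the following ranks in WT heart. Gsto1 overlapped Gsta4, and Gstm2 overlapped Gstk1. Exon lengths count every annotated exon, so the 5.09 kb of Gstz1 and 4.34 kb of Gsta3 lower their values relative to genes with short exons.

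Summed over the 25 transferases, the level was 1340 ± 152 CPM per kb in QKO liver and 1330 ± 337 CPM per kb in WT liver, against 179 ± 13.2 CPM per kb in QKO heart and 174 ± 9.01 CPM per kb in WT heart. Microsomal enzymes made up much of it in both tissues, with 45.8 ± 4.34% in QKO liver, 50.3 ± 2.71% in WT liver, 40.8 ± 1.73% in QKO heart and 40.6 ± 2.65% in WT heart. That share was mostly Mgst1 in liver and mostly Mgst3 in heart. The theta class held 9.57 ± 0.464% in QKO liver and 7.88 ± 1.19% in WT liver, but 2.01 ± 0.239% in QKO heart and 2.09 ± 0.220% in WT heart. The mu class went the other way, with 16.1 ± 3.85% in QKO liver and 14.3 ± 0.593% in WT liver, but 24.1 ± 1.21% in QKO heart and 25.0 ± 1.25% in WT heart.

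**Figure D1:**
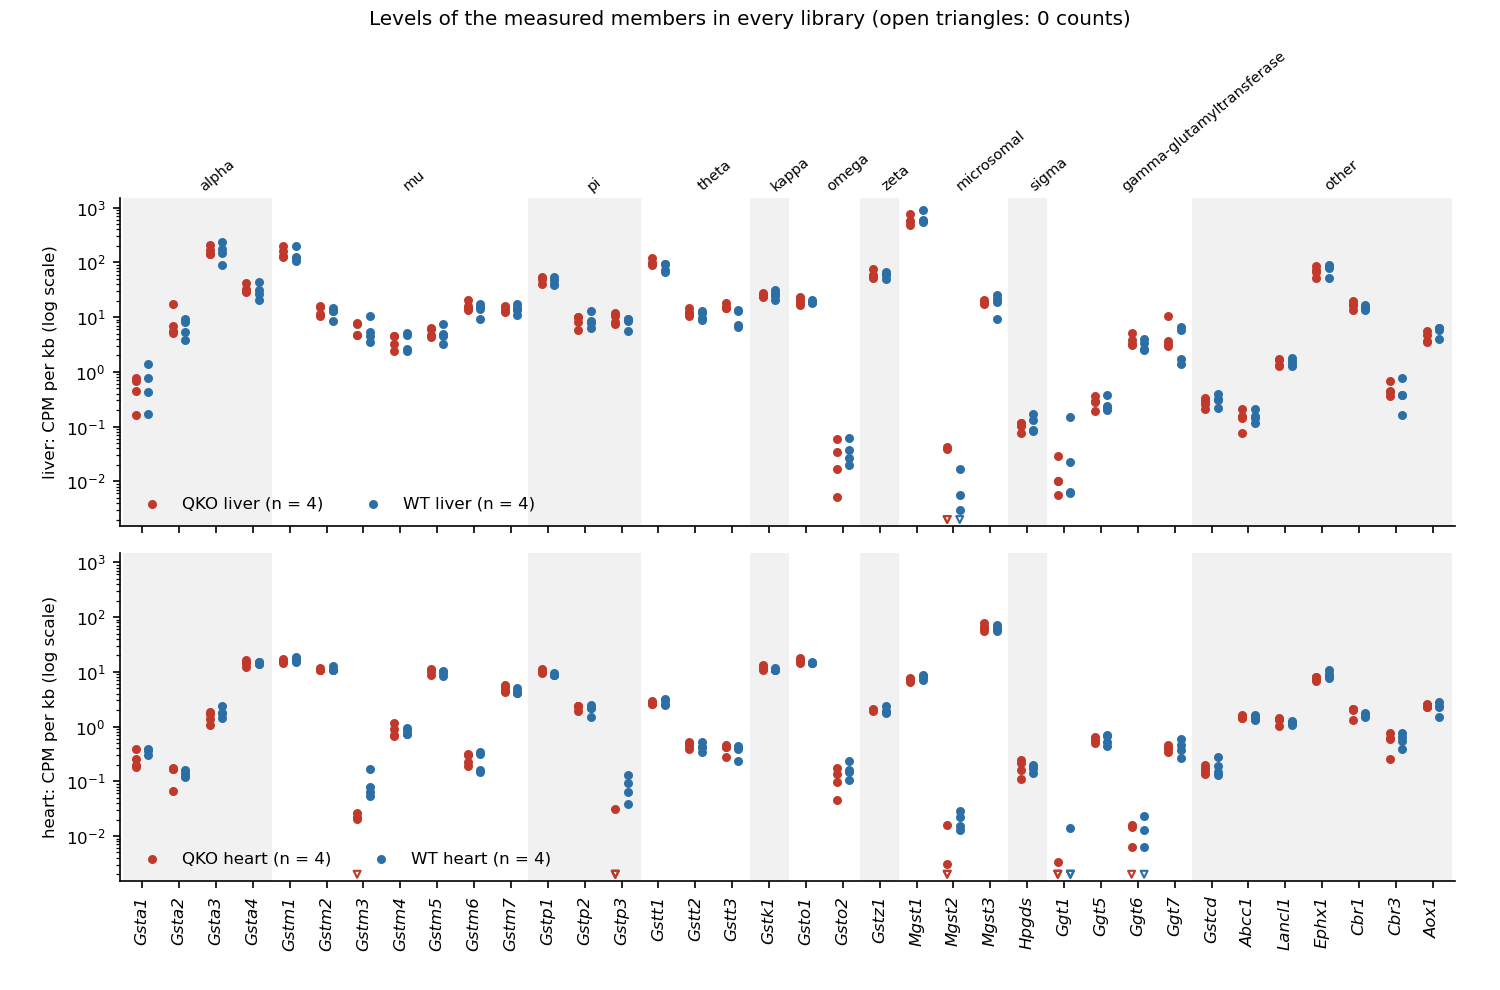
Level of each of the 36 genes in every library, as CPM per kb of exon on a log axis, in liver (top) and heart (bottom); QKO libraries are left of WT libraries and open triangles mark 0 counts. Mgst1 leads in liver at 653 CPM per kb in WT and Mgst3 leads in heart at 62.7 CPM per kb in WT, while QKO and WT libraries of the same tissue lie over each other for most genes.

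Liver and heart differed for most members. Among 33 members tested in QKO animals, 24 were higher and 5 lower in liver, and among 34 tested in WT animals 25 were higher and 5 lower (adjusted p under 0.05 over all genes, edgeR quasi-likelihood test with Benjamini-Hochberg adjustment). Of all genes tested, 37.1% were higher and 37.2% lower in liver in QKO animals, and 36.9% were higher and 35.6% lower in WT animals. The median log2 change, liver over heart, was 2.07 over the members and -0.01 over all genes in QKO animals, and 2.12 and 0.02 in WT animals. Scaling by the upper quartile lowered the median of all genes to -0.20 in QKO and -0.16 in WT animals and turned the sign of Lancl1 in QKO and of Gstm2 in WT animals, neither past the threshold before or after. Ggt1 and Mgst2 did not pass the filter on low counts in either genotype, and Gsto2 did not in QKO animals.

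The theta class genes lie together on chromosome 10 (Gstt1 at 75783813 to 75798584, Gstt2 at 75831114 to 75837424 and Gstt3 at 75774115 to 75781414, GRCm38, minus strand), and were all much higher in liver. Gstt1, which conjugates small halogenated compounds, had 146, 150, 182 and 136 CPM in QKO livers and 142, 145, 104 and 112 CPM in WT livers. In hearts it had 4.50, 3.91, 4.01 and 4.27 CPM in QKO and 4.82, 3.73, 3.99 and 4.77 CPM in WT animals. No liver overlapped any heart, and the log2 change was 5.17 in QKO (SE 0.14) and 4.84 in WT animals (SE 0.18, adjusted p = 2.82e-09, edgeR). Gstt3 stood at 5.32 in QKO and 4.81 in WT animals, and Gstt2 at 4.72 and 4.61. Gstz1, the maleylacetoacetate isomerase of tyrosine breakdown, had 296, 288, 387 and 266 CPM in QKO livers and 330, 335, 253 and 295 CPM in WT livers. Its hearts had 9.66 to 10.5 CPM in QKO and 8.97 to 12.1 CPM in WT animals, a log2 change of 4.90 in QKO and 4.89 in WT animals.

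Of the alpha class, Gsta3 showed the widest gap. It had 626, 623, 919 and 728 CPM in QKO livers and 1020, 768, 388 and 631 CPM in WT livers. Its hearts had 5.97, 4.72, 8.11 and 7.26 CPM in QKO and 10.4, 7.63, 6.29 and 7.69 CPM in WT animals, a log2 change of 6.76 in QKO (SE 0.24) and 6.44 in WT animals (SE 0.36, adjusted p = 3.64e-08, edgeR). WT livers alone spanned more than the difference between QKO and WT means, with WT liver 1 high and WT liver 3 low. Gsta4, which acts on the lipid aldehyde 4-hydroxynonenal, was far more even between the tissues. It had 42.1, 52.9, 36.9 and 38.3 CPM in QKO livers and 56.0, 33.9, 26.4 and 39.5 CPM in WT livers, against 15.3, 20.6, 18.2 and 19.3 CPM in QKO hearts and 19.3, 17.7, 17.9 and 18.8 CPM in WT hearts. Gsta2 had a log2 change of 5.85 in QKO and 5.58 in WT animals and shares reads with Gsta1, which was not called in either genotype (1.00 in QKO with adjusted p = 0.0657, and 0.92 in WT with adjusted p = 0.159, edgeR).

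The 7 mu class genes, in 1 cluster on chromosome 3, split widely. The log2 change, liver over heart, in WT animals was 5.98 for Gstm3, 5.93 for Gstm6, 3.02 for Gstm1, 2.18 for Gstm4, 1.67 for Gstm7, 0.11 for Gstm2 and -0.94 for Gstm5. All but Gstm2 passed the threshold in both genotypes. Gstm1 had 236, 295, 185 and 196 CPM in QKO livers and 296, 182, 154 and 174 CPM in WT livers, and 24.7, 21.4, 22.9 and 22.9 CPM in QKO hearts and 27.2, 24.5, 25.2 and 21.9 CPM in WT hearts. Gstm2 had 25.7, 27.2, 17.8 and 19.3 CPM in QKO livers and 24.6, 22.1, 14.4 and 21.9 CPM in WT livers, and overlapped its hearts, which had 18.4, 19.3, 18.5 and 18.4 CPM in QKO and 18.1, 18.5, 21.8 and 17.9 CPM in WT animals. Gstm5, known as a transferase of brain and testis, was the mu class gene that was higher in heart. It had 8.11, 6.00, 7.88 and 5.61 CPM in QKO livers and 9.78, 6.24, 4.17 and 5.90 CPM in WT livers, against 11, 13.4, 13.8 and 14.7 CPM in QKO hearts and 12.8, 13.4, 10.7 and 12.6 CPM in WT hearts.

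The microsomal enzymes Mgst1 and Mgst3 had opposite tissue patterns. Mgst1 had 966, 1140, 1550 and 1170 CPM in QKO livers and 1850, 1190, 1090 and 1130 CPM in WT livers, and 15.1, 15.2, 14.7 and 13.1 CPM in QKO hearts and 16.2, 17.6, 16.6 and 14.4 CPM in WT hearts. Its log2 change was 6.35 in QKO (SE 0.22) and 6.33 in WT animals (SE 0.28, adjusted p = 7.18e-09, edgeR). Mgst3 was the reverse, with 21.3, 23.0, 18.9 and 20.8 CPM in QKO livers and 27.7, 21, 10.3 and 23.9 CPM in WT livers, against 62.0, 70.7, 71.6 and 85.4 CPM in QKO hearts and 68.3, 79.7, 60.2 and 67.1 CPM in WT hearts. No heart overlapped any liver, and the log2 change was -1.82 in QKO (SE 0.12) and -1.74 in WT animals (SE 0.26, adjusted p = 8.70e-05, edgeR). Mgst2 had 0 to 12 counts in every library in both tissues.

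Other members that were higher in heart were the export pump Abcc1, the gamma-glutamyltransferase Ggt5, which acts on leukotriene C4, and Gsto2. Abcc1, which exports glutathione conjugates, had 2.32, 2.18, 1.17 and 3.10 CPM in QKO livers and 2.21, 1.76, 2.36 and 3.22 CPM in WT livers, against 24.4, 22.3, 22.0 and 21.5 CPM in QKO hearts and 22.9, 25.0, 21 and 20 CPM in WT hearts. Its log2 change was -3.37 in QKO (SE 0.22) and -3.23 in WT animals (SE 0.18, adjusted p = 3.66e-08, edgeR), the furthest below 0 of any member in either genotype. Ggt5 had 1.73, 1.15, 1.68 and 2.17 CPM in QKO livers and 1.19, 1.32, 1.43 and 2.21 CPM in WT livers, against 3.21, 2.91, 3.88 and 3.71 CPM in QKO hearts and 3.98, 3.11, 2.58 and 4.23 CPM in WT hearts. Gsto2, a dehydroascorbate reductase, was low everywhere, with 0.0123 to 0.141 CPM in QKO livers, 0.0460 to 0.143 CPM in WT livers, 0.106 to 0.419 CPM in QKO hearts and 0.247 to 0.549 CPM in WT hearts. Its log2 change was -2.10 in WT animals (adjusted p = 0.00107, edgeR). Hpgds, the haematopoietic prostaglandin D synthase, was called lower in liver in QKO (-0.84, adjusted p = 0.0162) but not in WT animals (-0.55, adjusted p = 0.0986, edgeR); this difference between the genotypes had an unadjusted p of 0.507.

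Gsto1 differed little between the tissues, with 33.6, 47, 37.8 and 41.5 CPM in QKO livers and 41.8, 37.9, 35.9 and 37.9 CPM in WT livers, against 29.0, 32.8, 30.3 and 35.8 CPM in QKO hearts and 29.7, 29.4, 29.9 and 29.7 CPM in WT hearts. Its log2 change was 0.29 in QKO animals (adjusted p = 0.0498) and 0.36 in WT animals (adjusted p = 0.00536, edgeR). The call in QKO animals was lost in 7 alternatives and that in WT animals under upper-quartile scaling. The carbonyl reductases split as well. Cbr1, which reduces carbonyls such as menadione and prostaglandins, was higher in liver at 3.12 in QKO and 3.21 in WT animals, while Cbr3 was not called (-0.26 in QKO and -0.51 in WT animals). The remaining members higher in liver in both genotypes were Ggt7 (3.62 in QKO and 3.18 in WT animals), Ephx1 (3.15 and 3.07), Gstp1 (2.22 and 2.35), Gstp2 (1.86 and 2.05), Gstk1 (0.98 and 1.22), Aox1 (0.84 and 1.31) and Gstcd (0.69 and 0.75). The call of Gstcd was lost in 1 of 15 alternatives in QKO animals (adjusted p up to 0.0628) and in 6 of 16 in WT animals (adjusted p up to 0.0967, edgeR), among them those without WT liver 1, WT liver 3 or WT heart 1, 2 or 4. Lancl1, which resembles bacterial lanthionine synthetases, was called in WT (0.39) and not in QKO animals (0.17), and the difference had an unadjusted p of 0.318.

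**Figure D2:**
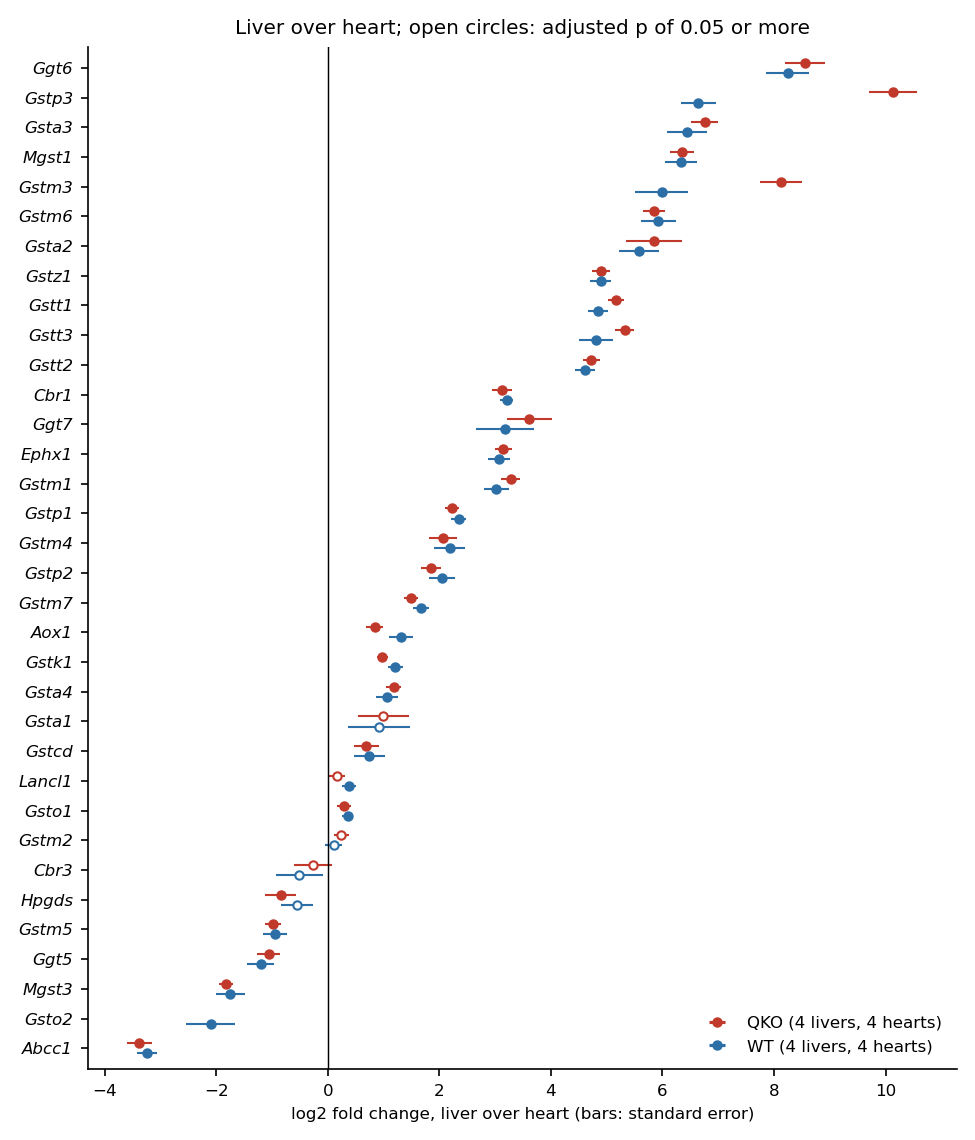
Log2 fold change, liver over heart, of each tested member with its standard error, in QKO animals (upper point of each pair) and WT animals (lower point); open circles did not pass the threshold. Most members lie right of 0, up to 8.24 for Ggt6 in WT. Abcc1, Gsto2, Mgst3, Ggt5 and Gstm5 lie left of it in WT animals, as do Hpgds and Cbr3, which did not pass the threshold there.

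Some members were almost absent from heart, and their values there rest on few counts. Ggt6, a member of the gamma-glutamyltransferase family, had 5.73, 6.98, 9.19 and 5.88 CPM in QKO livers and 7.24, 6.22, 4.70 and 4.62 CPM in WT livers. All 4 QKO hearts together held 3 counts and all 4 WT hearts 3 counts, so the liver-to-heart ratio was 418 in QKO (95% exact binomial interval 143 to 2030) and 338 in WT animals (116 to 1640). Gstp3, a pi class gene that shares no 75-base word with Gstp1, had 10.7, 7.30, 9.40 and 6.71 CPM in QKO livers and 7.80, 8.54, 5.06 and 8.40 CPM in WT livers. Its hearts held 0, 1, 0 and 0 counts in QKO and 5, 2, 1 and 5 counts in WT animals. The ratio was 1580 in QKO (284 to 62600) and 103 in WT animals (59.8 to 193). Gstm3 had 10.1, 9.88, 6.17 and 6.26 CPM in QKO livers and 13.9, 5.85, 4.68 and 7.09 CPM in WT livers, and 0, 1, 1 and 3 counts in QKO hearts and 9, 2, 2 and 9 counts in WT hearts. These intervals cover counting error only.

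Hepatocyte transcripts were present in every heart library at a low level. As a percentage of the liver of the same animal, the median of the 10 hepatocyte markers was 0.363, 0.278, 0.197 and 0.160% in QKO hearts and 0.656, 0.473, 0.420 and 0.133% in WT hearts. The highest marker reached 0.196% to 0.424% in QKO hearts and 0.264% to 1.14% in WT hearts. The heart level of Ggt6 was 0 to 0.412% of liver in QKO and 0 to 0.667% in WT animals, at or below the highest marker in 4 of 8 animals. Gstp3 was at or below it in 3 animals, Gstm3 in 2, and Gsta3 and Mgst1 in 1 each. Every other member with 1 CPM or more in WT liver exceeded it in all 8 animals. Gsta3 had 0.758% to 0.998% of liver in QKO hearts and 0.994% to 1.62% in WT hearts, and Mgst1 0.948% to 1.56% and 0.876% to 1.52%. Whether the heart values of Ggt6, Gstp3, Gstm3, Gsta3 and Mgst1 came from cells of the heart was not tested.

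**Figure D3:**
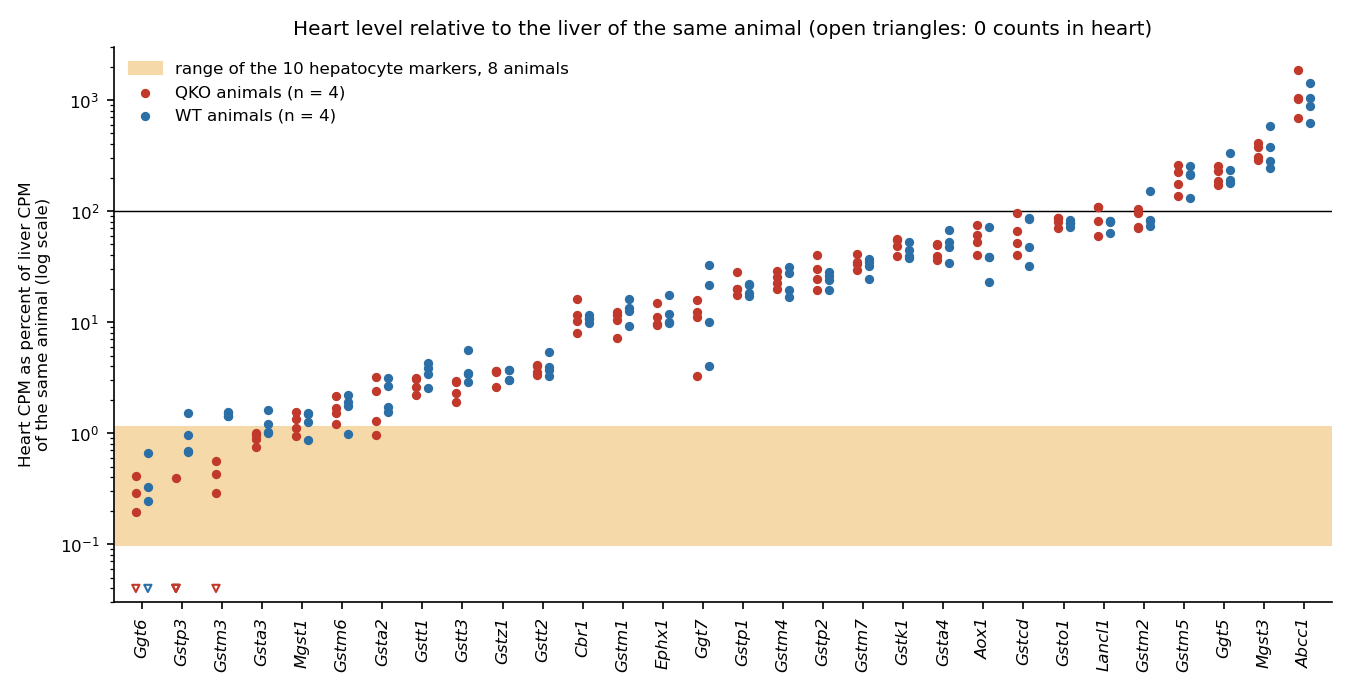
Heart CPM as a percentage of liver CPM of the same animal, on a log axis, for members with a WT liver mean of 1 CPM or more, QKO animals left of WT animals; the shaded band is the range of the 10 hepatocyte markers over the 8 animals, and open triangles mark 0 counts. Ggt6, Gstp3, Gstm3, Gsta3 and Mgst1 are among the genes with animals inside the band, and Gstm5, Ggt5, Mgst3 and Abcc1 lie above 100%.

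In the comparison that the knockout was made for, no member passed the threshold. In liver 0 of 33 tested members were called, beside 15 of 17738 genes (0.0846%), and 1 had an unadjusted p under 0.05, beside 3.29% of all genes (edgeR quasi-likelihood test). In heart 0 of 30 were called, beside 28 of 16974 genes (0.165%), and 2 had an unadjusted p under 0.05, beside 7.19% of all genes. DESeq2 also called 0 members in either tissue. The median log2 change of the members was 0.05 in liver (22 of 33 higher in QKO) and 0.04 in heart (17 of 30 higher), against -0.01 and 0.00 for all genes. The 95% interval of the change lay within a 2-fold rise or fall for 28 of 33 members in liver and 28 of 30 in heart. The most abundant members had changes in liver of -0.13 for Mgst1 (interval -0.60 to 0.34), 0.04 for Gsta3 (-0.52 to 0.61) and 0.17 for Gstm1 (-0.31 to 0.65), and in heart of 0.08 for Mgst3 (-0.14 to 0.29). A p-value that misses the threshold does not show that the groups were alike.

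The smallest p-value in liver belonged to Gstt3, a theta class gene that shares 11.5% of its words with another annotated gene. It had 55.6, 60.0, 68.8 and 55.9 CPM in QKO livers and 51.1, 48.8, 28.1 and 25.5 CPM in WT livers. The groups did not overlap, with WT livers 3 and 4 at the low end, and the log2 change was 0.64 (SE 0.22, unadjusted p = 0.0128, adjusted p = 1.00, edgeR). WT livers 3 and 4 are those that held acinar transcripts, and WT liver 4 also held muscle transcripts. Without both livers the change was 0.28 with an adjusted p of 0.781 (edgeR). The labels number the animals in a series that begins with 47 and another that begins with 48, with 2 animals of each genotype in each. Gstt3 averaged 57.8 CPM in QKO and 49.9 CPM in WT livers of series 47, and 62.4 and 26.8 CPM in series 48 (2 livers each). WT livers 3 and 4 are also the WT livers of series 48, so leaving them out does not separate foreign transcripts from the series. With the series as a term, 0 members were called in liver. The part of the foreign transcripts in the result was not tested. Non-overlap of the groups was seen in 1 of 30 members with a mean of 1 CPM or more, beside 2.02% of such genes.

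Its neighbours stood on the same side at smaller size. Gstt1 had a log2 change of 0.28 (SE 0.16, unadjusted p = 0.102) and Gstt2 of 0.19 (unadjusted p = 0.243, edgeR), and both groups overlapped for each. Within series 48 Gstt1 averaged 159 CPM in QKO and 108 CPM in WT livers, and within series 47 148 and 144 CPM. Aox1, an aldehyde oxidase that uses a molybdenum cofactor, was the only one of the 4 members with the smallest p-values in liver that lay lower in QKO livers. It had 41.8, 48.8, 29.9 and 32.2 CPM in QKO livers and 54.3, 56.1, 51.6 and 34.4 CPM in WT livers, a log2 change of -0.37 (SE 0.19, unadjusted p = 0.0797, edgeR). Ggt6 followed at 0.28 (SE 0.20, unadjusted p = 0.188).

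In heart the smallest p-value belonged to Gstp1, a pi class enzyme that was higher in liver than in heart in both genotypes. It had 14.9, 15.7, 15.4 and 17.5 CPM in QKO hearts and 14.8, 13.5, 13.5 and 13.7 CPM in WT hearts. The groups did not overlap, but QKO heart 1 and WT heart 1 were 0.1 CPM apart, and the log2 change was 0.20 (SE 0.07, unadjusted p = 0.0181, adjusted p = 0.660, edgeR). QKO heart 4, the highest, is the library with the least ribosomal RNA, and without both hearts of number 4 the change was 0.14 with an adjusted p of 0.787. Gstp1 shares 29.2% of its words with copies, so the value may include reads of Gstp2 or Gstp-ps. The change of Gstp2 in heart was 0.11 (SE 0.16), and that of Gstp-ps was not examined. Non-overlap was seen in 1 of 25 members with a mean of 1 CPM or more, beside 5.11% of such genes.

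Ephx1, the microsomal epoxide hydrolase, had 13.2, 15.9, 14.4 and 15.4 CPM in QKO hearts and 16.3, 15.3, 20.6 and 17.7 CPM in WT hearts. The groups overlapped at WT heart 2, and the log2 change was -0.25 (SE 0.10, unadjusted p = 0.0209, adjusted p = 0.660, edgeR). In liver it had 139, 164, 128 and 103 CPM in QKO and 164, 153, 174 and 101 CPM in WT animals, a log2 change of -0.16 (SE 0.20). Gstk1, a mitochondrial and peroxisomal transferase, had 18.9, 17.5, 16.1 and 19.8 CPM in QKO hearts and 17.5, 15.7, 15.8 and 16 CPM in WT hearts (0.15, SE 0.08, unadjusted p = 0.0638). Its livers had 34.1, 35.9, 40.9 and 35.2 CPM in QKO and 46.1, 40.1, 35.6 and 30.4 CPM in WT animals. Mgst1 in heart had a change of -0.16 (SE 0.08, unadjusted p = 0.0754). The hepatocyte markers were lower in QKO hearts for 10 of 10 genes with a median of -0.64, but 0 were called and 1 had an unadjusted p under 0.05 (edgeR). Their median level relative to liver overlapped, with 0.160% to 0.363% in QKO hearts and 0.133% to 0.656% in WT hearts. As a percentage of liver, Mgst1 in heart was 4.30 to 6.96 times the median marker in QKO animals and 1.33 to 9.58 times in WT animals.

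**Figure D4:**
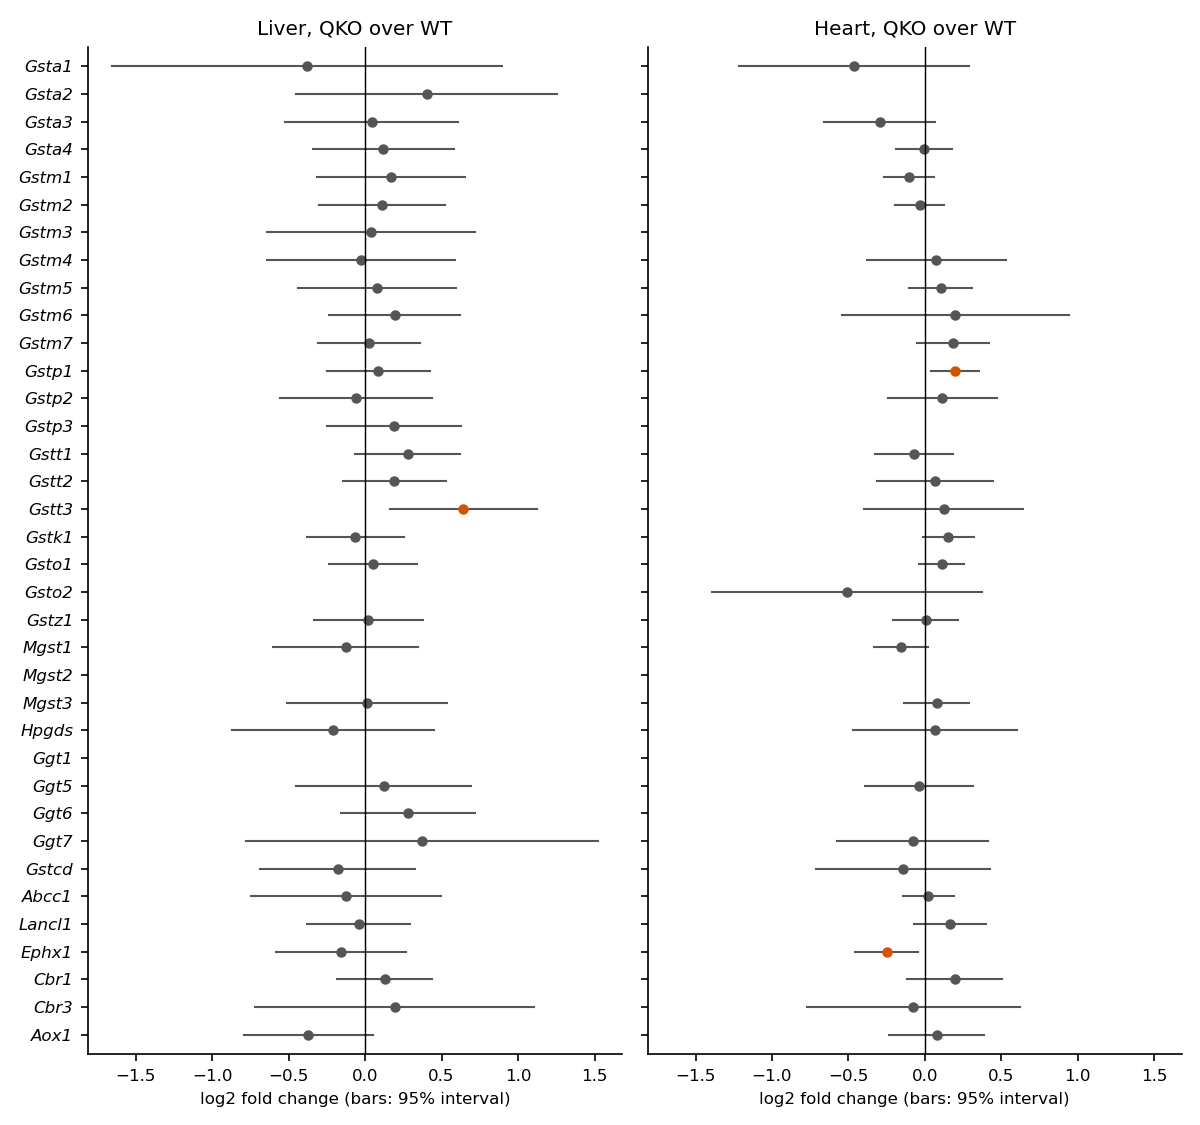
Log2 fold change, QKO over WT, of each tested member in liver (left) and heart (right) with its 95% interval; the orange points had an unadjusted p under 0.05, and none passed after adjustment. Only the intervals of Gstt3 in liver and of Gstp1 and Ephx1 in heart leave out 0.

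**Figure D5:**
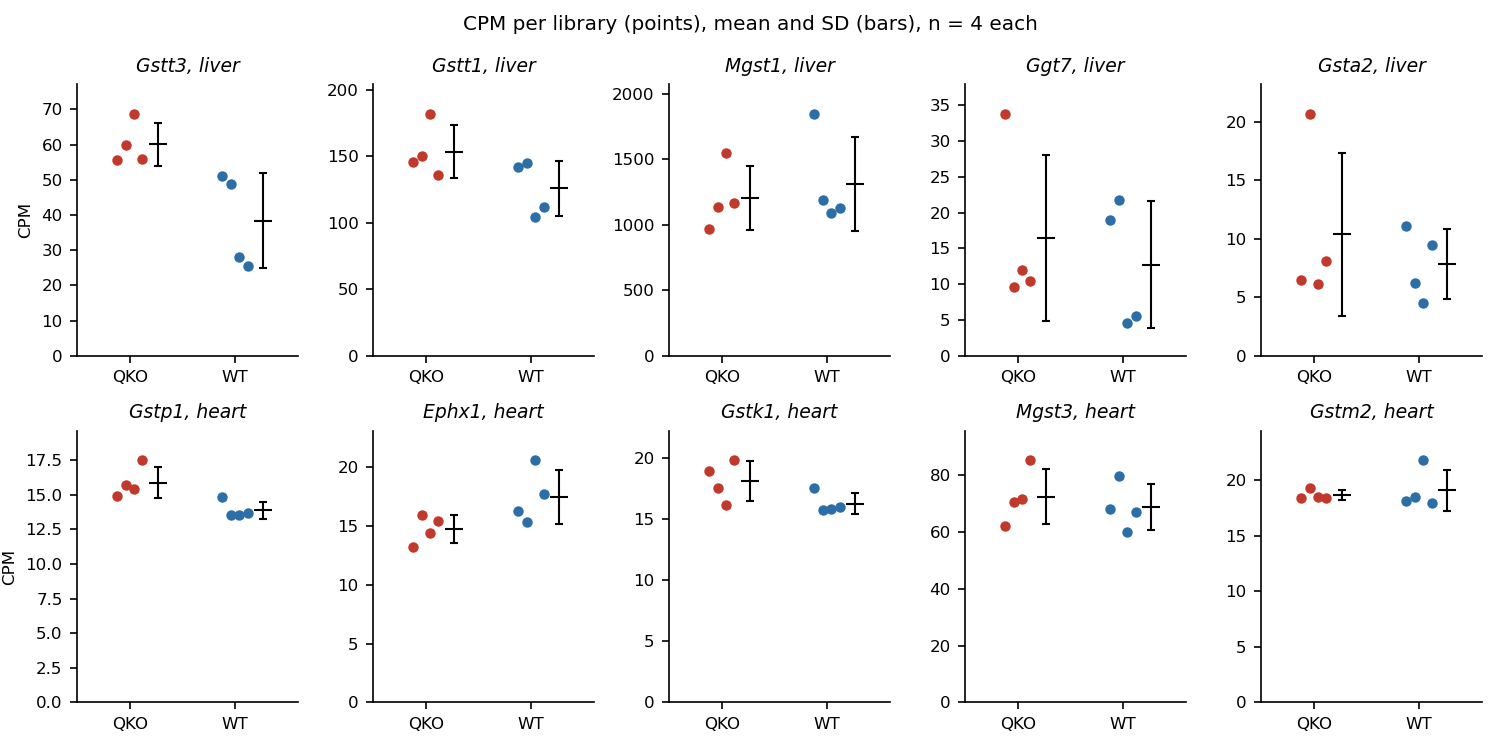
CPM in each library of 5 members in liver (top) and 5 in heart (bottom), QKO left of WT, with mean and SD over 4 animals. Gstt3 in liver and Gstp1 in heart show no overlap between the groups, and single libraries lie far from the rest for Mgst1, Ggt7 and Gsta2 in liver.

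The difference between the tissues in the QKO effect was tested over all 16 libraries. Of 34 members 0 were called, beside 1 of 19587 genes (0.00511%), and with the animal as a block 0 genes and 0 members were called. DESeq2 called 0 members and 12 genes in all. An unadjusted p under 0.05 was reached by 2 members, beside 4% of all genes (edgeR). Those 2 were Gstp3 (3.51, SE 0.95, unadjusted p = 0.00172, adjusted p = 1.00, edgeR) and Gstm3 (2.16, SE 0.91, unadjusted p = 0.0288, adjusted p = 1.00, edgeR). Both rest on hearts with few counts. The QKO over WT ratio of Gstp3 was 1.16 in liver (1.09 to 1.23) and 0.0750 in heart (0.00176 to 0.499), from 1 count in QKO and 13 in WT hearts. For Gstm3 it was 1.17 in liver (1.11 to 1.24) and 0.222 in heart (0.0655 to 0.600), from 5 and 22 counts, and counting error alone is covered by these intervals. The hepatocyte markers, which were also lower in QKO hearts though with overlapping groups, had a median of 0.74 in this test. Of these, 10 of 10 were above 0 and 0 were called. Their part in the values of Gstp3 and Gstm3 was not tested.

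WT livers differed among themselves across most members. Of the 30 members with a mean of 1 CPM or more in liver, 19 had their highest WT value in WT liver 1, against 24.2% of all such genes, and 22 had their lowest in WT liver 3, against 24.8% of all such genes. Over the 25 transferases the sum was 1210, 1360, 1550 and 1260 CPM per kb in QKO livers and 1810, 1290, 1030 and 1200 CPM per kb in WT livers. WT liver 1 had the smallest total count of the livers, and WT liver 3 had 514 CPM of acinar transcripts. Their part in the spread was not tested. In QKO liver no library held more than 11 of the 30 highest or lowest values. Ggt1, the classical gamma-glutamyltransferase of kidney and pancreas, had 47 counts in WT liver 3 and 0 to 8 counts in every other library.

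Neighbouring parts of the pathway were described with lists chosen with earlier results of these data known. Of the glutathione synthesis and recycling genes 0 of 13 tested were called in either tissue, and 11 of 13 were higher in liver than in heart in both genotypes. Chac1, which cleaves glutathione, had the smallest p-value of any of these in heart. It had 2.06, 2.13, 3.32 and 3.21 CPM in QKO hearts and 1.55, 1.45, 1.17 and 1.27 CPM in WT hearts, without overlap (log2 change 1.00, SE 0.20, unadjusted p = 0.00019, adjusted p = 0.0949, edgeR). In liver it stood at 0.99 with an SE of 0.61 and overlapping groups. Of the mercapturate pathway 0 of 10 were called in liver and 0 of 11 in heart, and 9 of 10 were higher in liver than in heart in both genotypes. The smallest p-value among them for liver over heart was that of Nat8f1, at 7.39 in QKO and 7.04 in WT animals. For QKO over WT in heart it was that of Anpep (unadjusted p = 0.00445, edgeR). Anpep had 2.82 to 3.59 CPM in QKO hearts and 3.73 to 5.41 CPM in WT hearts, without overlap. Of 6 conjugate exporters 0 were called for genotype in either tissue. In heart 2 had an unadjusted p under 0.05, beside 7.19% of all genes (edgeR). The smaller was that of Abcc3 (unadjusted p = 0.00317, edgeR), with 0.767 to 1.44 CPM in QKO hearts and 1.45 to 2.33 CPM in WT hearts. Its livers averaged 116 CPM in QKO and 123 CPM in WT animals. Abcc2, the canalicular pump, was far higher in liver than in heart (8.27 in QKO and 6.99 in WT animals). Of 14 regulators tested in liver and 12 in heart, 0 were called for genotype. In each tissue 3 had an unadjusted p under 0.05 (edgeR), beside 3.29% of all genes in liver and 7.19% in heart. The smallest was that of Maff in liver (unadjusted p = 0.0135, edgeR) and of Hnf4a in heart (unadjusted p = 0.00551, edgeR). Nfe2l2, which encodes NRF2, had a log2 change of -0.02 in liver (SE 0.16) and -0.20 in heart (SE 0.08, unadjusted p = 0.0218, adjusted p = 0.660, edgeR). Its hearts overlapped, with 19.1 to 22.8 CPM in QKO and 21.7 to 26.0 CPM in WT animals. Of 10 target genes of NRF2, CAR and PXR 0 were called in liver (median 0.17, 7 of 10 above 0), and 0 of 9 in heart (median -0.22, 0 of 9 above 0). The smallest p-value in heart was that of Hmox1 (unadjusted p = 0.00732, edgeR). It had 1.68 to 2.04 CPM in QKO hearts and 2.05 to 3.36 CPM in WT hearts, without overlap but nearly touching. Non-overlap in heart, also that of Chac1 and Anpep, stands beside 5.11% of all genes with a mean of 1 CPM or more. Nqo1 averaged 23.3 CPM in QKO heart and 23.4 CPM in WT heart, and Txnrd1 16.9 and 18.2 CPM. Several others of the list are liver genes with little RNA in heart. Cyp3a11 averaged 826 CPM in QKO liver and 762 CPM in WT liver, against 2.0 CPM in QKO heart and 3.05 CPM in WT heart, and Ces2a 172 and 139 CPM in liver against 0.379 and 0.528 CPM in heart. The hepatocyte markers had a median of -0.64 in QKO over WT heart, and their part in the values of these genes was not tested. Of 10 tested genes for proteins with a transferase-like fold 0 were called for genotype in either tissue. For liver over heart, 0 were called higher in both genotypes, and 2 were called lower in QKO and 4 in WT animals, with the smallest p-value for Clic5 (-7.85 in QKO and -7.13 in WT animals).

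The leading transferases of each tissue were also set beside their promoter sequence. RefSeq start sites on GRCm38.p6 gave 45 promoters for 32 members, each from 250 bases before to 50 after the start, and both strands were searched for TGACNNNGC, the core of the antioxidant response element. It occurred in 7 of the 45 (15.6%) and in 12.4% of 32851 promoters of the same length. The 7 promoters belonged to 5 of the 32 members. These were Gsta3, Gstm5, Gstm7, Mgst1 and Ggt1, of which Gsta3, Gstm7 and Mgst1 were higher in liver and Gstm5 was higher in heart. Ggt1 had a match at several alternative start sites, in 1 case 41 bases after the start. Mgst1 and Gstm7 each also had another RefSeq start site without a match. The 250 bases before the start are given for the leading liver genes with a match (Gsta3 and Mgst1), for the heart-biased mu class gene with a match (Gstm5) and for the leading heart gene, Mgst3, which had none. Capitals mark the match.
Gsta3, chr1:21240335-21240584, plus strand: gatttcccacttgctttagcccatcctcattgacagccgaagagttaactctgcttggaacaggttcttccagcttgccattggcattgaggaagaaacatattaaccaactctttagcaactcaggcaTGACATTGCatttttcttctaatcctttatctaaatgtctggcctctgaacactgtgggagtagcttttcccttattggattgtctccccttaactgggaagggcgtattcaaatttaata
Mgst1, chr6:138140277-138140526, plus strand: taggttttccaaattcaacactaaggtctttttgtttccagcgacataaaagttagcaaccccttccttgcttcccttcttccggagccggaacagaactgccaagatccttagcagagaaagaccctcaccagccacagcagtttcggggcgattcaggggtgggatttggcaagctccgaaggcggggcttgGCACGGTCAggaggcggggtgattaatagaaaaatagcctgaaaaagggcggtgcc
Gstm5, chr3:107895604-107895853, plus strand: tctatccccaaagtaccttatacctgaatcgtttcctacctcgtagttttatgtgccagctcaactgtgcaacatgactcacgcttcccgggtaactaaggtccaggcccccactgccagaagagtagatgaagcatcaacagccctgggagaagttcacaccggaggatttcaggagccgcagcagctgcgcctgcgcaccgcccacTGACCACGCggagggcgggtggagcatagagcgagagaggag
Mgst3, chr1:167393842-167394091, minus strand: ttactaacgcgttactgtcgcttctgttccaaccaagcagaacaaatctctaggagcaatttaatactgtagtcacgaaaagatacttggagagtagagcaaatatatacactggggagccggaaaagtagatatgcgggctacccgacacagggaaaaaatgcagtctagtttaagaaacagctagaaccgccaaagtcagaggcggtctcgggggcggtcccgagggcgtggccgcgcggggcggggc
The match begins 121 bases before the start in Gsta3, 56 in Mgst1, on the opposite strand, and 42 in Gstm5. A match is a description of the letters in the window, and no measurement of binding was made.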

How the data were processed

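The authors deposited raw read counts per gene, whole numbers for 48709 Ensembl gene identifiers in 16 libraries. Per the labels' protocols, total RNA was depleted of ribosomal RNA with a stranded TruSeq kit and sequenced as pairs of 75 bp reads, about 75 M reads stated per sample. The submitters' processing notes list HISAT2, featureCounts, cutadapt, limma, FastQC, bcl2fastq and CASAVA, with the mm10 build. The annotation release, the strand setting and the treatment of reads that match several places are not given in the sources used here, so reads of near copies and of overlapping genes may be shared, split or dropped.

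Symbols and exon lengths came from GENCODE release M21 (48349 identifiers matched), and 0 columns were left unmapped. Counts were TMM scaled, and edgeR 4.0.16 (R 4.3.3) gave quasi-likelihood F tests on all genes that passed filterByExpr, with Benjamini-Hochberg adjustment and a threshold of 0.05. Each tissue was fitted apart for QKO over WT, each genotype apart for liver over heart, and all 16 libraries together for the difference. The SE is the size of the change over the square root of F. Alternatives were DESeq2 1.42.0, other scaling, other filters, protein-coding genes only, left-out libraries and blocks. The main edgeR fits, except liver over heart in QKO animals, were checked on simulated counts with the same assumed variability for every gene. The alternatives were not checked in this way. Liver and heart share animals, and their deviations from group means correlated at 0.0144 to 0.0965 across genes in the 8 animals. The members and lists were chosen with earlier results of these data known. Members were named by their p-values, non-overlap, level or tissue difference, at most 6 per item, and other members, neighbours and Ggt1 were named after their values were seen. Per the labels, replicates are separate animals.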

Additional observations from a re-analysis of the deposited data

Results flagged for a closer look

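Each member with a group mean of 1 CPM or more was examined for a library far from the other 3 of its group, in 110 groups of 4. By chance about 1 in 20 groups would hold one. There were 6 such values. Mgst1 had 1850 CPM in WT liver 1, against 1090 to 1190 CPM in the other WT livers. Ggt7, a gamma-glutamyltransferase-like gene, had 33.8 CPM in QKO liver 1, against 9.55 to 12 CPM in the other QKO livers. Gsta2 had 20.7 CPM in QKO liver 2, against 6.15 to 8.15 CPM in the others, and shares 36.6% of its words with near copies. Gstm2 had 19.3 CPM in QKO heart 2, against 18.4 to 18.5 CPM in the others, and 21.8 CPM in WT heart 3, against 17.9 to 18.5 CPM in the others. Gstp2 had 2.16 CPM in QKO heart 1, against 2.61 to 2.68 CPM in the others. The gaps of Gstm2 and Gstp2 were small beside their levels.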

How the results depend on the processing

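The count of members past the threshold was 0 for QKO over WT in liver, in heart and for their difference in every alternative run, with each library or animal left out in turn included. For liver over heart it was 27 to 32 in QKO and 28 to 33 in WT animals. Single values under the alternatives were compared for members tested in the main fit. Of 2667 such values, 17 lost a call and 9 gained one, all in liver over heart: Gstcd, Gsto1, Lancl1 and Hpgds lost, and Hpgds, Gsta1, Cbr3 and Gstm2 gained. Calls of members not tested in the main fit are left out of these counts. With no low count filter, 30 members were called in QKO and 31 in WT animals, of which 29 and 30 were tested in the main fit. No call changed sign. Signs of uncalled changes were less stable: without WT liver 3, 10 of 33 members changed sign and 14 were higher in QKO liver.

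The number of all genes called moved more. In liver 15 were called, but 50 by DESeq2, 9 with protein-coding genes only and 44 with all 16 libraries in 1 fit (12 to 19 with each library left out). In heart 28 were called, but 60 by DESeq2, 102 with no low count filter and 16 with all 16 libraries in 1 fit (18 to 25 with each library left out). For the difference between the tissues 1 was called, but 12 by DESeq2, 2 with no filter and 0 with the animal as a block (1 to 2 with each animal left out). The cause was not tested.

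With the replicate number as a block, 50 genes were called in heart and 16 in liver, and 0 members in either. Correlations of same-numbered QKO and WT libraries were -0.0680 to 0.0852 in liver and 0.00398 to 0.268 in heart, so the numbers are not shown to pair the animals. With the animal as a block, 29 members were called in QKO and 30 in WT animals for liver over heart.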
